A study of Homo sapiens with 12 samples.

Results

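ZA was set against BITC in MDA-MB-231 cells, a human triple-negative breast cancer line, with each compound given alone. The comparison takes the 3 ZA libraries and the 3 BITC libraries, 6 of the 12 libraries of the series, and every gene with counts. Of 27412 genes with counts in the series, 26136 had a count in these 6 libraries, and 14950 passed the filter on low counts and were tested. ZA cells had received 1 µM ZA for 24 h, and BITC cells 2 µM BITC for 24 h. The other libraries came from cells given both compounds at these doses (BITC+ZA, 3 libraries) and from cells given the vehicle, 0.02% DMSO and 0.1% water (3 libraries), also for 24 h. The labels give the compounds as abbreviations, and from knowledge of the study ZA was read as zoledronic acid and BITC as benzyl isothiocyanate. The doses differ, so the comparison is between the treatments as given and not between the compounds at 1 dose. All groups are dishes of 1 cell line without bone or immune cells. Dishes were plated in triplicate, and the labels do not say whether these were independent cultures. The p-values then measure the spread between these libraries, which may be technical.

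BITC is an electrophile found in cruciferous plants. Electrophiles modify cysteines of KEAP1, which otherwise marks the transcription factor NRF2 (gene NFE2L2) for degradation, and NRF2 then binds antioxidant response elements near genes for glutathione synthesis, quinone reduction, iron storage and NADPH supply. ZA is a nitrogen-containing bisphosphonate given against bone metastasis. It inhibits farnesyl diphosphate synthase, the product of FDPS, and so limits the isoprenoids that anchor small GTPases to membranes and that feed sterol synthesis, whose genes are controlled by the SREBP factors.

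The libraries held 15874857 to 17375664 counts. Levels are in CPM, the counts of a gene scaled to the size of its library, and a log2 fold change is ZA over BITC, so a positive one means higher in ZA. Words such as fell, drop, gain, higher and lower likewise compare ZA with BITC and do not describe a change from vehicle. Genes were tested with edgeR's quasi-likelihood test. Adjusted p-values carry a Benjamini-Hochberg adjustment over all genes tested, and a gene was called below 0.05. The spread of a gene was estimated over all 12 libraries. ZA library 1 stood apart from ZA libraries 2 and 3. The chi-square per gene between their counts was 16.9 and 15.1, against 3.19 between ZA libraries 2 and 3 and 2.74 to 3.99 among BITC libraries, and ZA library 1 lay nearer to the BITC libraries (7.09 to 8.57). Deviations of a library from the mean of all libraries followed GC content, with a Spearman coefficient across genes of −0.376 in ZA library 1 and 0.407 and 0.427 in ZA libraries 2 and 3, against −0.424, −0.435 and −0.135 in BITC libraries 1 to 3. Mitochondrially encoded genes took 4.95% of the counts of ZA library 1 and 3.88 and 3.92% of those of ZA libraries 2 and 3, against 3.78 to 4.04% in BITC libraries. Fold changes and counts of called list members are therefore given with all libraries and without ZA library 1. The line's known markers VIM, CD44, EGFR, AXL and CAV1 had 306 to 1519 CPM in every library. Of the hormone receptor and HER2 genes, known to be low in this line, PGR was at 0, and ESR1 reached at most 0.124 CPM. ERBB2, the HER2 gene, had 76.5 to 105 CPM in every library.

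ZA and BITC cells differed in 1577 genes (10.5% of those tested), of which 913 were higher in ZA (6.11%) and 664 lower (4.44%). The differences were small: the median size over called genes was 1.22-fold, 98 genes were at least 1.5-fold higher and 44 at least 1.5-fold lower, and 22 and 13 genes reached 2-fold. Among called genes with a mean of at least 5 CPM whose groups did not overlap, also called without ZA library 1, the largest drops in ZA relative to BITC were those of SLC7A11, AKR1C3, PIR, AL135905.2, HKDC1 and NQO1. Of these, SLC7A11 imports cystine, and AKR1C3 and NQO1 are carbonyl and quinone reductases. The largest gains were those of STAG3L1, SAA1, COX6A1 and FKBP2, followed by RTN4R, LLGL2, RHOB and SH2D3A. The 3 ZA levels did not overlap the 3 BITC levels for 1209 of the called genes, while over all tested genes this held for 21.2%. Without ZA library 1, 4525 genes were called (29.6%), with 2396 higher (15.7%) and 2129 lower (13.9%), and 1566 of the 1577 genes were among them with the same sign. In 806 of the 913 higher genes ZA library 1 was below both other ZA libraries, and in 488 of the 664 lower genes it was above both. With only the ZA and BITC libraries in the model, 181 genes were called (1.27%), 129 higher (0.906%) and 52 lower (0.365%), all of them among the 1577. The same model gave 4145 calls (28.4%) without ZA library 1, 2188 higher and 1957 lower.

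**Figure D1:**
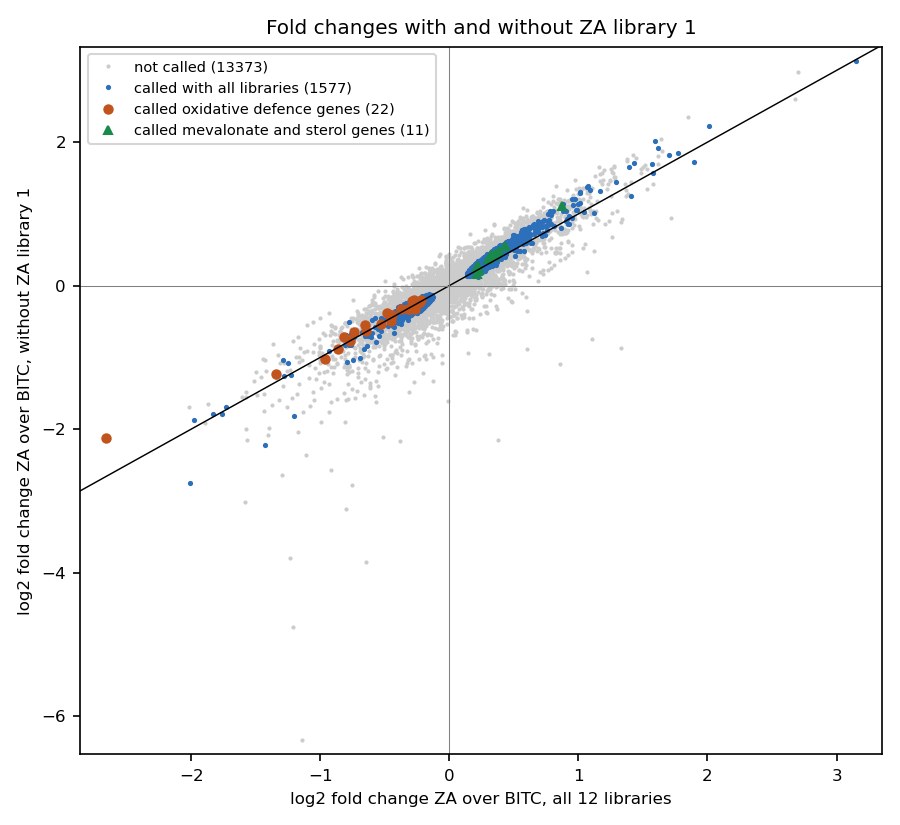
Log2 fold change of ZA over BITC for every gene tested, with all 12 libraries (horizontal axis) and without ZA library 1 (vertical axis). Grey points are genes not called, blue points the 1577 called genes, orange circles the 22 called oxidative defence genes and green triangles the 11 called mevalonate and sterol genes. The line marks equal values. Most blue points lie on the far side of the line from 0, while orange circles lie on both sides of it.

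The difference followed GC content. Genes called higher had a median GC content of 59.1% and a median length of 3685 bases, genes called lower 42.6% and 7298 bases, and all tested genes 48.2% and 4618 bases. Among 10 bins of nearly equal size by GC content, the median log2 fold change was −0.09 in the lowest bin (−0.15 without ZA library 1) and 0.21 in the highest (0.30 without it). With per-library trends on GC content and length removed, 1453 genes were called (9.72%), 690 higher (4.62%) and 763 lower (5.1%), so the share of higher genes among the calls was 47.5% in place of 57.9%. Without ZA library 1 these offsets left 2534 calls (16.6%), 1140 higher (7.46%) and 1394 lower (9.13%). Of the 1577 genes, 809 were called in the same direction with and without the offsets and with and without ZA library 1, 405 higher and 404 lower. The part of GC content in single results was not tested, and values with the offsets are given where a call with all libraries was lost with them.

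**Figure D2:**
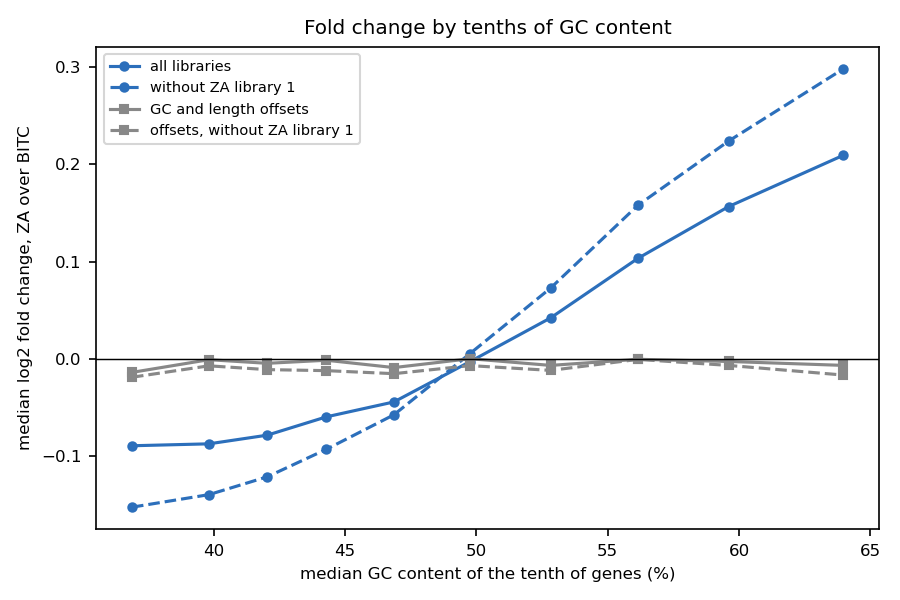
Median log2 fold change of ZA over BITC in 10 bins of the tested genes ordered by GC content, placed at the median GC content of each bin in percent. Blue circles are the values as tested and grey squares those with GC and length offsets, with solid lines for all libraries and dashed lines for those without ZA library 1. The blue lines climb to 0.21 and 0.30 in the bin with the highest GC content, and the grey lines stay within 0.02 of 0.

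Oxidative defence genes were lower in ZA than in BITC. Of 40 tested genes in 5 lists, 22 were called lower and 0 higher, against 4.44 and 6.11% of all genes tested. The lists were glutathione synthesis and cystine import, quinone and carbonyl reduction and other NRF2 targets, thioredoxin, ferritin and heme, and NADPH supply. The median log2 fold change of the 40 was −0.29, against 0.00 over all genes tested. Without ZA library 1, 23 were called lower (57.5%, against 13.9% over all genes) and 1 higher (2.5%, against 15.7%), with a median of −0.24. With only the ZA and BITC libraries 14 were called lower, against 0.365% of all genes. In all 22 the mean of the vehicle libraries lay nearer to that of ZA than to that of BITC, with or without ZA library 1, while this held for 48.4% of all called genes (33.0% without ZA library 1). In 19 of the 22 the mean of BITC+ZA lay nearer to BITC, against 42.4% of all called genes. The 3 exceptions were ME1, TXN and AKR1B1.

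The antioxidant response element core was searched as TGACNNNGC on both strands in RefSeq promoters of build GRCh38.p14, from 250 bases before to 50 after each start. Of the 22 genes, 16 had an entry, with 21 promoters, and 7 of these promoters (33.3%), from 6 genes, held the core, against 13.3% of 35116 promoters of all genes. The lists hold known NRF2 targets, so a higher share was built into the choice of genes and says nothing about ZA against BITC. One window upstream of the start is shown for 5 of the 6 genes, with the core in capitals and 20 bases on each side, because these genes were all called lower in ZA. Each is written along the gene's own strand, and in GCLM and PGD the core lies on the opposite strand. In ME1, and in PIR, where the core lies after the start and is not shown, it also holds an AP-1 site (TGACTCA or TGAGTCA).
TXNRD1 (chr12:104215660-104215708, plus strand): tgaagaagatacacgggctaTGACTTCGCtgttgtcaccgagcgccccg
GCLM (chr1:93909436-93909484, minus strand): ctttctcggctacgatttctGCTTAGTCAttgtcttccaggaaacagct
ME1 (chr6:83431160-83431208, minus strand): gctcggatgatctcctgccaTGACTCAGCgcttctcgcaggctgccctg
PGD (chr1:10398843-10398891, plus strand): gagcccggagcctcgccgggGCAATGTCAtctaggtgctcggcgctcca
EPHX1 (chr1:225825256-225825304, plus strand): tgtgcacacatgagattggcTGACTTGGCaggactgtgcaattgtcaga
A match is a description of the letters in the window and does not show binding.

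Of 5 genes for glutathione, the cell's main thiol, and cystine import, 4 were called lower in ZA than in BITC, with and without ZA library 1. The 4 were 80%, against 4.44% of all genes called lower, or 13.9% without ZA library 1. SLC7A11, the cystine importer (chr4:138164097-138242349, minus strand, GRCh38), had 115, 99 and 103 CPM in ZA libraries 1 to 3, against 207, 215 and 193 CPM in BITC libraries 1 to 3. The groups were far apart (log2 fold change −0.96, SE 0.06, adjusted p = 7.74e-12, or −1.02, SE 0.05, adjusted p = 2.1e-25 without ZA library 1), and the level was 192 ± 8.40 CPM with both compounds and 121 ± 0.885 CPM in vehicle (SD, n = 3 each). GCLM, the modifier subunit of the enzyme of the first step of glutathione synthesis, had 199, 184 and 181 CPM in ZA, against 265, 261 and 243 CPM in BITC. Its ZA libraries all lay below its BITC libraries (log2 fold change −0.45, SE 0.05, adjusted p = 1.54e-06, or −0.49, SE 0.04, adjusted p = 3.45e-14 without ZA library 1). GSR, which reduces oxidized glutathione, had 60.3, 67.6 and 61 CPM in ZA, against 84.4, 86.7 and 86.3 CPM in BITC. GSR gave a log2 fold change of −0.45 (SE 0.06, adjusted p = 1.78e-05), or −0.41 without ZA library 1 (SE 0.06, adjusted p = 3.46e-08). GCLC, the catalytic partner of GCLM, fell less (−0.31, adjusted p = 0.0082, or −0.33, adjusted p = 0.000536 without ZA library 1), and its call was lost without library ZA 2 (adjusted p = 0.0531). GSS, which completes glutathione, was not called (log2 fold change 0.09, or 0.11 without ZA library 1).

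Of 15 genes for quinone and carbonyl reduction and other NRF2 targets, 10 were called lower in ZA than in BITC and 0 higher. The counts were the same without ZA library 1. The 10 were 66.7%, against 4.44% of all genes called lower, or 13.9% without ZA library 1. NQO1, the quinone reductase most used as a readout of NRF2 (chr16:69706996-69726951, minus strand), had 258, 257 and 249.9 CPM in ZA, against 434, 438 and 434 CPM in BITC. Within each group the libraries lay close together, and the groups did not overlap (log2 fold change −0.77, SE 0.04, adjusted p = 3.83e-12, or −0.78, SE 0.04, adjusted p = 8.03e-25 without ZA library 1). Its level was 409.7 ± 8.38 CPM with both compounds and 249.8 ± 7.87 CPM in vehicle. AKR1C3, an aldo-keto reductase that also acts on steroids, had 12, 12.1 and 10.7 CPM in ZA, against 23.3, 20.2 and 19.9 CPM in BITC. AKR1C3 gave a log2 fold change of −0.86 (SE 0.11, adjusted p = 1.2e-05), or −0.89 without ZA library 1 (SE 0.12, adjusted p = 1.92e-08). PIR, a nuclear iron-binding protein, had 5.69, 6.13 and 8.05 CPM in ZA, against 11.5, 10.3 and 13.3 CPM in BITC. PIR gave a log2 fold change of −0.82 (SE 0.15, adjusted p = 0.0014), or −0.72 without ZA library 1 (SE 0.16, adjusted p = 0.000207). AKR1C1 was scarce, with 0.831, 1.14 and 1.01 CPM in ZA and 2.62, 2.09 and 2.93 CPM in BITC (−1.34, adjusted p = 0.00802, or −1.23, adjusted p = 0.00474 without ZA library 1). The family members AKR1C1, AKR1C2 and AKR1C3 are close copies, and their shares of reads are uncertain.

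AKR1B10, a retinal and aldehyde reductase, was near the limit of detection, with 0, 0.180 and 0.119 CPM in ZA and 0.810, 0.492 and 0.748 CPM in BITC (−2.66, adjusted p = 0.0174, or −2.13, adjusted p = 0.0226 without ZA library 1), and its call was lost without library BITC 1 or ZA 3 (adjusted p from 0.06 to 0.0788). TRIM16L had 53.8, 66.6 and 62.9 CPM in ZA, against 98.5, 98.6 and 109 CPM in BITC. TRIM16L gave a log2 fold change of −0.74 (SE 0.07, adjusted p = 7.62e-08), or −0.65 without ZA library 1 (SE 0.06, adjusted p = 2.9e-14). It is a partial copy of TRIM16, a ubiquitin ligase, which fell too (−0.48, adjusted p = 0.000923, or −0.38, adjusted p = 5.02e-05 without ZA library 1), so the split of reads between the pair is uncertain. EPHX1, the epoxide hydrolase (−0.37, or −0.33 without ZA library 1), AKR1B1, an aldose reductase (−0.22, or −0.20 without ZA library 1), and ABHD4 (−0.27, or −0.20 without ZA library 1) fell too, and the call of ABHD4 was lost without library BITC 1 (adjusted p = 0.0536). AKR1C2, CBR1, CBR3, UGDH and OSGIN1 were the 5 members of this list of 15 that were not called.

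**Figure D3:**
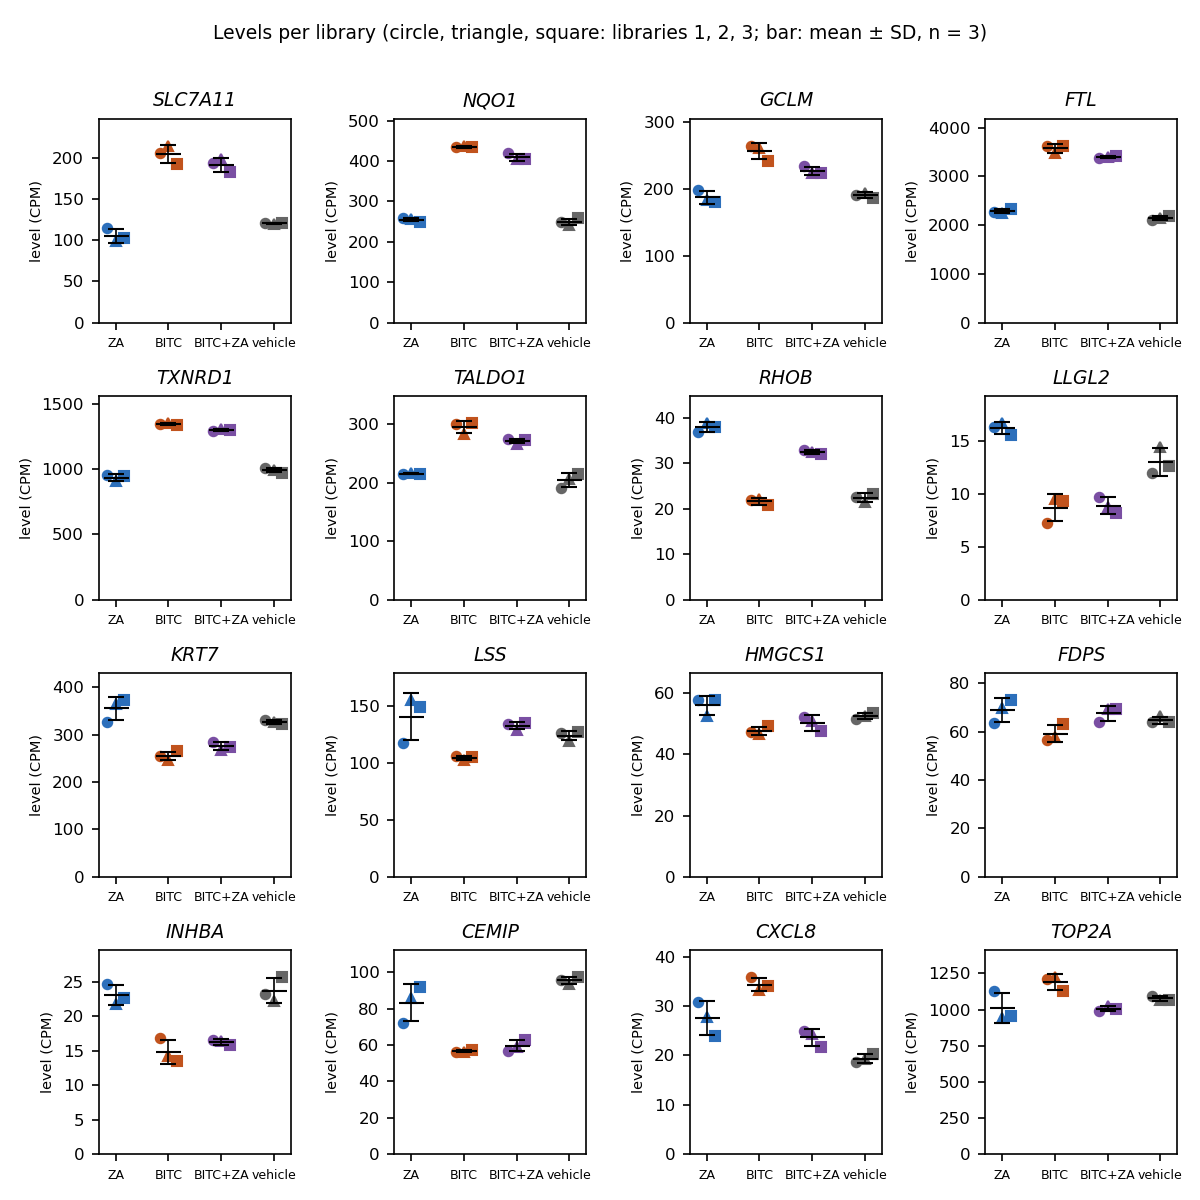
Levels of 16 genes in CPM in every library, by group from left to right ZA, BITC, BITC+ZA and vehicle. Circles, triangles and squares are libraries 1, 2 and 3, and the black bars give the mean and SD (n = 3). NQO1, SLC7A11, FTL, TXNRD1 and TALDO1 lie low in ZA and vehicle and high in BITC and BITC+ZA, RHOB lies high in ZA and BITC+ZA, and LSS and TOP2A show ZA library 1 (circle) apart from the other ZA libraries.

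Of 8 genes for ferritin, heme and iron 2 were called lower in ZA than in BITC (25%), with and without ZA library 1. Of 6 for thioredoxin and peroxiredoxin 2 were called lower (33.3%), with 0 higher in both lists over all libraries. Among all genes 4.44% were called lower and 6.11% higher, or 13.9 and 15.7% without ZA library 1. FTL, the ferritin light chain, had 2278, 2249 and 2334 CPM in ZA, against 3633, 3470.1 and 3624 CPM in BITC. FTL gave a log2 fold change of −0.64 (SE 0.04, adjusted p = 9.59e-12), or −0.64 without ZA library 1 (SE 0.03, adjusted p = 5.26e-25). FTH1, the heavy chain, had 426, 552 and 533 CPM in ZA, against 832, 744 and 808 CPM in BITC, with ZA library 1 the lowest. FTH1 gave a log2 fold change of −0.66 (SE 0.07, adjusted p = 2.32e-05), or −0.55 without ZA library 1 (SE 0.04, adjusted p = 4.35e-18). Both ferritins have many pseudogenes. HMOX1, the heme oxygenase often induced by NRF2, was not called, with 12, 16.3 and 17.7 CPM in ZA and 16, 15.6 and 19.1 CPM in BITC (−0.14, adjusted p = 0.569, or 0.01, adjusted p = 0.954 without ZA library 1). The 6 members of the ferritin, heme and iron list other than the ferritins were not called. TXNRD1, the thioredoxin reductase, had 951, 905 and 945 CPM in ZA, against 1342, 1355 and 1339 CPM in BITC. TXNRD1 gave a log2 fold change of −0.53 (SE 0.04, adjusted p = 1.23e-09), or −0.54 without ZA library 1 (SE 0.03, adjusted p = 1.25e-20). The ZA libraries lay close together and far below the BITC libraries. TXN, thioredoxin itself, fell less (−0.26, adjusted p = 0.00235, or −0.33, adjusted p = 1.4e-10 without ZA library 1). SRXN1, PRDX1, PRDX6 and GLRX were not called with all libraries. Without ZA library 1 the list of 6 had 3 members called lower and 1 higher (50 and 16.7%, against 13.9 and 15.7% over all genes).

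NADPH fuels these reductases, and 4 of 6 genes for its supply were called lower in ZA than in BITC, with and without ZA library 1. The 4 were 66.7%, against 4.44% of all genes called lower, or 13.9% without ZA library 1. TALDO1, of the pentose phosphate pathway, had 215, 217 and 215 CPM in ZA, against 301, 284 and 303 CPM in BITC. TALDO1 gave a log2 fold change of −0.46 (SE 0.05, adjusted p = 6.17e-07), or −0.45 without ZA library 1 (SE 0.04, adjusted p = 4.75e-13). The groups did not overlap. ME1, the cytosolic malic enzyme (−0.32, or −0.33 without ZA library 1), and PGD, a dehydrogenase of the same pathway as TALDO1 (−0.23, or −0.23 without ZA library 1), fell as well, both called with every library left out in turn. TKT and IDH1 were not called (log2 fold change −0.13, or −0.06 without ZA library 1, and 0.01, or −0.04 without ZA library 1).

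NRF2's own gene and its repressor were not called. NFE2L2 had 199, 158 and 158 CPM in ZA and 198, 195 and 196 CPM in BITC, with ZA library 1 at the BITC level (−0.19, adjusted p = 0.0566, or −0.31, adjusted p = 1.13e-07 without ZA library 1). KEAP1 had 117, 145 and 142 CPM in ZA and 129, 123 and 134 CPM in BITC (0.07, adjusted p = 0.539, or 0.16, adjusted p = 0.00511 without ZA library 1), and with GC and length offsets its log2 fold change turned negative (−0.11, adjusted p = 0.0853). Of the partners and feedback genes, SQSTM1, an autophagy receptor that binds KEAP1, fell (−0.20, adjusted p = 0.00949, or −0.15, adjusted p = 0.00256 without ZA library 1). MAFG, a small MAF partner of NRF2, fell slightly (−0.18, adjusted p = 0.0323, or −0.15, adjusted p = 0.0188 without ZA library 1), and its call was lost without library vehicle 2, vehicle 3, BITC 1, BITC 2, BITC 3 or ZA 3 (adjusted p from 0.051 to 0.127). MAFK, another small MAF, was higher in ZA (0.45, adjusted p = 0.0074, or 0.60, adjusted p = 6.41e-09 without ZA library 1), a call lost without library BITC 1 or ZA 2 (adjusted p from 0.0598 to 0.0726). Its level in ZA library 1 lay within the BITC range. In all, 1 of the 7 genes of this list was called higher and 2 lower (14.3 and 28.6%, against 6.11 and 4.44% of all genes). The list had 2 higher (28.6%, against 15.7% over all genes) and 4 lower (57.1%, against 13.9%) without ZA library 1.

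Conjugation and transport genes mostly did not pass the test. Among 11, 0 were called higher and 2 lower (0 and 18.2%, against 6.11 and 4.44% of all genes). The list had 2 higher (18.2%, against 15.7% over all genes) and 2 lower (18.2%, against 13.9%) without ZA library 1. MGST1, a membrane-bound glutathione transferase, had 93.9, 81.5 and 75.3 CPM in ZA, against 119, 113 and 110.4 CPM in BITC. MGST1 gave a log2 fold change of −0.45 (SE 0.07, adjusted p = 0.000126), or −0.54 without ZA library 1 (SE 0.05, adjusted p = 7.26e-12). GSTM3, a cytosolic transferase, fell (−0.26, or −0.26 without ZA library 1), and its call was lost without library BITC 2 (adjusted p = 0.0603). Of 6 genes of the aryl hydrocarbon receptor, which senses planar aromatic compounds, 3 were called lower (50%, against 4.44% of all genes) and 0 higher. The list had 0 higher (0%, against 15.7% over all genes) and 4 lower (66.7%, against 13.9%) without ZA library 1. CYP1A1, the classical target, had 6.07, 7.57 and 8.17 CPM in ZA, against 10.3, 10.1 and 12.6 CPM in BITC (−0.60, adjusted p = 0.0118, or −0.48, adjusted p = 0.0109 without ZA library 1), and its call was lost without library BITC 3 (adjusted p = 0.0538). CYP1B1 had 277, 240.1 and 237 CPM in ZA, against 306, 300.1 and 284 CPM in BITC, without overlap (−0.24, adjusted p = 0.00525, or −0.31, adjusted p = 7.62e-09 without ZA library 1). TIPARP, which feeds back on the receptor, fell (−0.31, adjusted p = 0.014, or −0.43, adjusted p = 1.28e-07 without ZA library 1), a call lost without library BITC 2, ZA 2 or ZA 3 (adjusted p from 0.0742 to 0.111). The vehicle mean of all 3 lay nearer to ZA, as it did for 48.4% of all called genes.

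**Figure D4:**
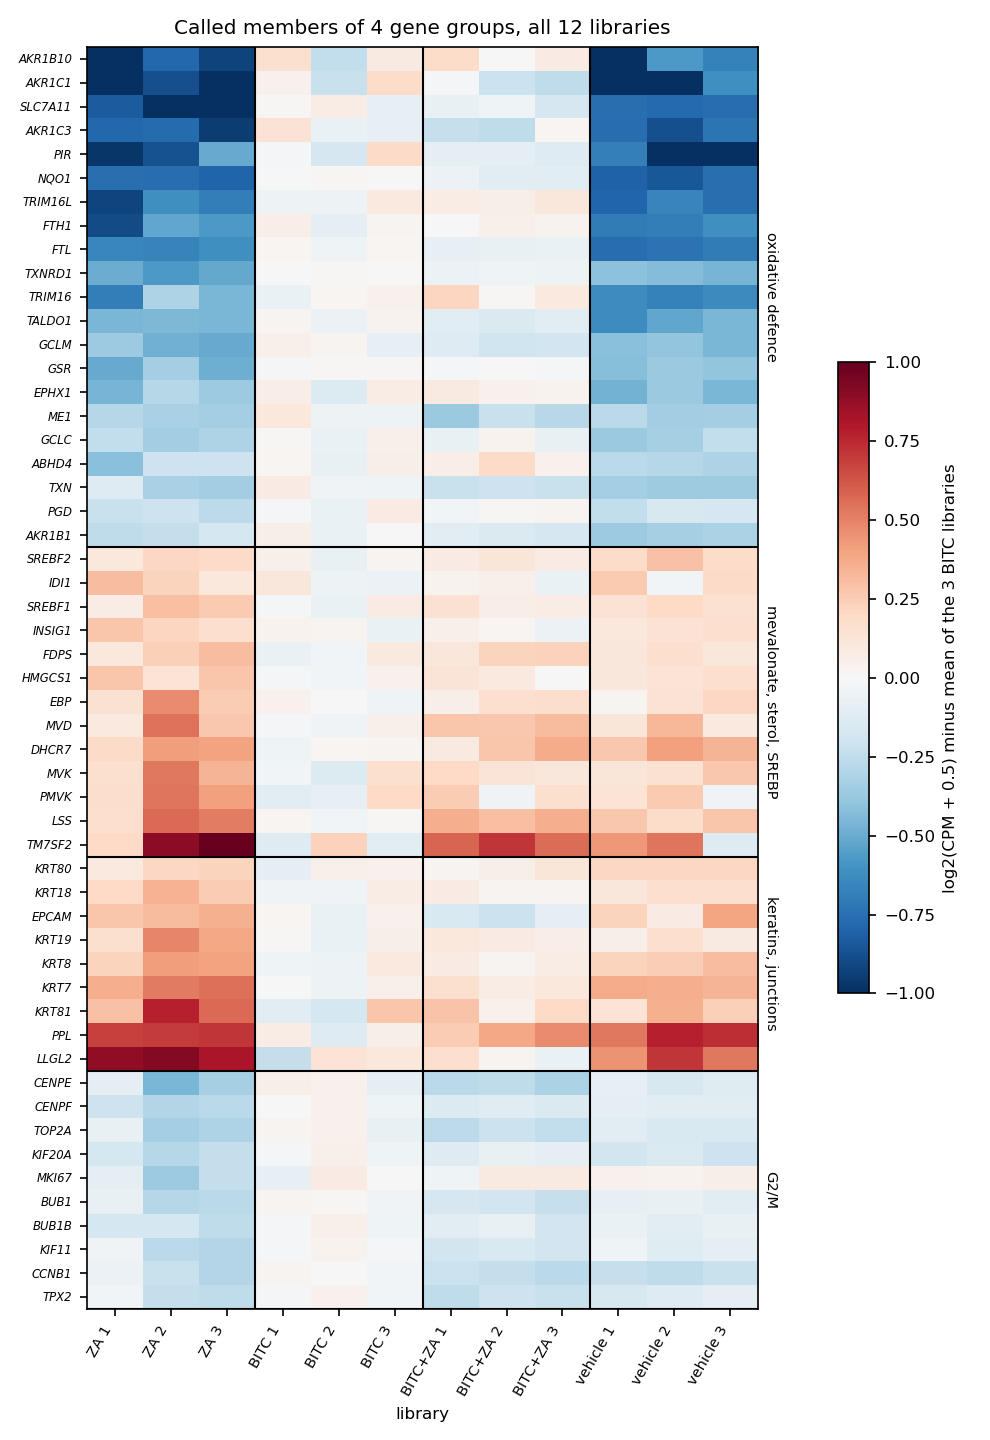
Log2(CPM + 0.5) of called members of 4 gene groups, other than those not reported here, in all 12 libraries, minus the mean of the 3 BITC libraries, with genes in lines and libraries in columns (ZA, BITC, BITC+ZA, vehicle). Blue is below and red above the BITC mean, and the colours end at 1 unit on the log2 scale. The oxidative defence genes are blue in ZA and vehicle and, for most of them, paler in BITC+ZA, while the sterol and keratin genes are red in ZA, palest in ZA library 1 for most of them.

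Genes of the mevalonate pathway and of sterol synthesis were higher in ZA. Of 21 tested genes 11 were called higher (52.4%) and 0 lower, against 6.11 and 4.44% of all genes tested. They were 6 of 9 in the mevalonate trunk (FDPS and GGPS1 included) and 5 of 12 in the sterol branch. The median log2 fold change of the 21 was 0.22 (0.26 without ZA library 1). Without ZA library 1, 12 were called higher (57.1%, against 15.7% over all genes), 5 in the trunk and 7 in the sterol branch. With GC and length offsets 9 were called higher (against 4.62% of all genes), 2 in the trunk and 7 in the sterol branch. The calls were less firm than those of oxidative defence. Leaving out 1 library at a time left 3 to 12, the fewest without BITC library 1 or 2 or ZA library 2 or 3. With only the ZA and BITC libraries 2 were called higher, against 0.906% of all genes. The called genes of this group had a median GC content of 58.2%, against 50.2% over the 21. In 7 of the 11 the vehicle mean lay nearer to ZA than to BITC, or 4 without ZA library 1. Over all called genes this held for 48.4%, or 33.0% without ZA library 1.

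FDPS, which encodes the target of ZA (chr1:155308748-155320666, plus strand), had 63.8, 70.01 and 73.3 CPM in ZA, against 56.5, 58 and 63.3 CPM in BITC. The lowest ZA library lay just above the highest BITC library (log2 fold change 0.22, SE 0.06, adjusted p = 0.0293, or 0.28, SE 0.06, adjusted p = 0.000223 without ZA library 1). Its call was lost without library BITC 1, BITC 2, ZA 2 or ZA 3 (adjusted p from 0.109 to 0.166), and with GC and length offsets it was not called (0.11, adjusted p = 0.189). HMGCS1, the synthase that opens the pathway, had 57.8, 52.4 and 57.8 CPM in ZA, against 47.3, 46.6 and 49.1 CPM in BITC. HMGCS1 gave a log2 fold change of 0.23 (SE 0.06, adjusted p = 0.0229), or 0.21 without ZA library 1 (SE 0.07, adjusted p = 0.0101). Its ZA libraries were all higher, and its call was lost without library BITC 1, BITC 2 or ZA 3 (adjusted p from 0.0866 to 0.129). MVK, the mevalonate kinase, was higher in ZA (0.35, adjusted p = 0.0183, or 0.44, adjusted p = 0.000105 without ZA library 1), as were PMVK, the next kinase (0.39, adjusted p = 0.0356, or 0.49, adjusted p = 0.00076 without ZA library 1), and MVD, the decarboxylase after it (0.33, adjusted p = 0.0418, or 0.43, adjusted p = 0.000551 without ZA library 1). These calls were weak: the call of MVK was lost without library BITC 1, BITC 2, ZA 2 or ZA 3 (adjusted p from 0.0526 to 0.174), that of PMVK lost without library vehicle 1, BITC 1, BITC 2, ZA 2, ZA 3 or BITC+ZA 3 (adjusted p from 0.0504 to 0.218), and that of MVD lost without each library in turn except ZA 1 and vehicle 2 (adjusted p from 0.0529 to 0.35). With GC and length offsets MVK (0.23, adjusted p = 0.0611), PMVK (0.22, adjusted p = 0.18) and MVD (0.11, adjusted p = 0.486) were not called. IDI1, the isomerase, was called with all libraries (0.21, adjusted p = 0.0487, or 0.17, adjusted p = 0.0605 without ZA library 1), a call lost without library vehicle 1, vehicle 3, BITC 2, BITC 3, ZA 1, ZA 2, BITC+ZA 1, BITC+ZA 2 or BITC+ZA 3 (adjusted p from 0.0504 to 0.223). ACAT2 and GGPS1 were not called.

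In the sterol branch the clearest gene was LSS, lanosterol synthase, with 117, 156 and 149.5 CPM in ZA, against 106, 103 and 106 CPM in BITC. ZA library 1 was the lowest of its group and still above every BITC library (log2 fold change 0.43, SE 0.07, adjusted p = 0.000807, or 0.55, SE 0.05, adjusted p = 1.53e-14 without ZA library 1). DHCR7, the last reductase of cholesterol synthesis, had 98.2, 115 and 114 CPM in ZA, against 83.1, 86.8 and 87.6 CPM in BITC (log2 fold change 0.34, SE 0.07, adjusted p = 0.00268, or 0.42, SE 0.06, adjusted p = 2.74e-08 without ZA library 1), without overlap. LSS and DHCR7 were the 2 genes of this group also called with only the ZA and BITC libraries (adjusted p = 0.0325 and 0.0389). EBP, a sterol isomerase, was higher (0.30, adjusted p = 0.00949, or 0.37, adjusted p = 5.91e-06 without ZA library 1), a call lost without library BITC 2 or ZA 2 (adjusted p from 0.0576 to 0.111). TM7SF2, a sterol reductase, had 4.73, 7.99 and 9.66 CPM in ZA and 3.68, 4.86 and 3.74 CPM in BITC, with ZA library 1 inside the BITC range (0.87, adjusted p = 0.0128, or 1.11, adjusted p = 2.55e-06 without ZA library 1), and its call was lost without library BITC 1, ZA 2 or ZA 3 (adjusted p from 0.0704 to 0.101).

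Of 10 genes that regulate SREBP or take up sterol, 4 were called higher (40%) and 0 lower, against 6.11 and 4.44% of all genes. Leaving out ZA library 1 gave 5 higher (50%) and 0 lower, against 15.7 and 13.9% of all genes. INSIG1, which holds SREBP in the endoplasmic reticulum and is itself an SREBP target, had 165, 158 and 153 CPM in ZA, against 139.9, 139 and 130.3 CPM in BITC. INSIG1 gave a log2 fold change of 0.22 (SE 0.05, adjusted p = 0.00738), or 0.20 without ZA library 1 (SE 0.05, adjusted p = 0.000667). SREBF1 and SREBF2, the genes of the factors, were called (0.22, or 0.29 without ZA library 1, and 0.17, or 0.20 without ZA library 1), but not with GC and length offsets (0.04, adjusted p = 0.53, and 0.07, adjusted p = 0.32). The call of SREBF1 was lost without library BITC 1, BITC 2, ZA 2 or ZA 3 (adjusted p from 0.0688 to 0.121) and that of SREBF2 lost without library vehicle 1, vehicle 3, BITC 1, BITC 2, ZA 2, ZA 3, BITC+ZA 1, BITC+ZA 2 or BITC+ZA 3 (adjusted p from 0.0509 to 0.238). The sterol regulatory element was searched as TCACNCCAC on both strands in the same promoters. Of the 15 called mevalonate, sterol and SREBP genes 13 had an entry with 17 promoters, and 1 promoter (5.88%) held it, that of SREBF2, against 1.13% of all promoters. It was also in 1 of the 21 oxidative defence promoters (4.76%), that of PIR, and the antioxidant core was in 2 of the 17 (11.8%), those of EBP and HMGCS1. The SREBF2 window is shown as the 1 match in the group, with the element in capitals.
SREBF2 (chr22:41832952-41833000, plus strand): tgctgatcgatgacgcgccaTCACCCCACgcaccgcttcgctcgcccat

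Fatty acid synthesis, which SREBP1 controls, gave 3 of 9 genes called higher (33.3%) and 0 lower, against 6.11 and 4.44% of all genes. Leaving out ZA library 1 gave 4 higher (44.4%, against 15.7% over all genes) and 1 lower (11.1%, against 13.9%). With GC and length offsets 1 was called higher, against 4.62% of all genes. SCD, the stearoyl-CoA desaturase, had 479.6, 488 and 489 CPM in ZA, against 403, 401 and 382 CPM in BITC, without overlap. SCD gave a log2 fold change of 0.30 (SE 0.04, adjusted p = 0.000126), or 0.31 without ZA library 1 (SE 0.04, adjusted p = 7.45e-10). FASN, the fatty acid synthase, was higher (0.24, adjusted p = 0.0155, or 0.35, adjusted p = 6.56e-12 without ZA library 1), but with GC and length offsets it was not called (0.05, adjusted p = 0.386), and its call was lost without library BITC 1, BITC 2, ZA 2 or ZA 3 (adjusted p from 0.0746 to 0.122). FADS2, a desaturase, was higher (0.18, adjusted p = 0.0182, or 0.21, adjusted p = 0.0002 without ZA library 1), but was not called with the offsets (0.09, adjusted p = 0.185), and its call was lost without library BITC 1, BITC 2, ZA 2 or ZA 3 (adjusted p from 0.0544 to 0.108). The median log2 fold change over the 9 genes was 0.00, or 0.03 without ZA library 1.

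Genes of the prenylation machinery, which attaches isoprenoids to GTPases, gave 0 calls among 10 in edgeR's test with all libraries. At an unadjusted p below 0.05 there was 1, and DESeq2 called 0 and limma 0. Without ZA library 1 edgeR called 1 higher (10%, against 15.7% over all genes) and 2 lower (20%, against 13.9%). Of 20 genes of small GTPases and their regulators 4 were called higher and 0 lower, with a median log2 fold change of 0.09 (0.05 without ZA library 1), and 8 higher and 2 lower without ZA library 1. RHOB, a short-lived small GTPase that is both farnesylated and geranylgeranylated (chr2:20447074-20449445, plus strand), had 36.8, 38.9 and 38 CPM in ZA, against 22, 22.2 and 20.8 CPM in BITC. ZA library 1 matched the other ZA libraries here, and the groups were far apart (log2 fold change 0.81, SE 0.07, adjusted p = 7.94e-08, or 0.83, SE 0.08, adjusted p = 3.04e-12 without ZA library 1). Its level was 32.5 ± 0.479 CPM with both compounds and 22.4 ± 0.921 CPM in vehicle, so BITC+ZA lay nearer to ZA and vehicle nearer to BITC. RHOB was called in every setting tried, with an adjusted p of 0.000191 from the ZA and BITC libraries alone. RHOC had 139, 191 and 192 CPM in ZA, against 131, 119 and 138 CPM in BITC, with ZA library 1 just above the BITC range (0.43, adjusted p = 0.0143, or 0.57, adjusted p = 2.52e-15 without ZA library 1). Its call was lost without library BITC 1, BITC 2 or ZA 2 (adjusted p from 0.0506 to 0.0983). RHOD was higher too (0.56, adjusted p = 0.00797, or 0.72, adjusted p = 1.01e-06 without ZA library 1), but with GC and length offsets it was not called (0.31, adjusted p = 0.0552), and its call was lost without library BITC 1, ZA 2 or ZA 3 (adjusted p from 0.06 to 0.0703). HRAS was called higher (0.27, adjusted p = 0.0145, or 0.34, adjusted p = 3.78e-06 without ZA library 1), which the offsets removed (0.02, adjusted p = 0.896), and its call was lost without library BITC 1, BITC 2, ZA 2 or ZA 3 (adjusted p from 0.0627 to 0.127). RHOA, RAC1 and NRAS were not called with all libraries.

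Keratins and epithelial junction genes were called higher in ZA in 9 of 11 cases (81.8%) and lower in 0, against 6.11 and 4.44% of all genes. Their median log2 fold change was 0.35 (0.42 without ZA library 1). Leaving out ZA library 1 gave 9 higher (81.8%, against 15.7% over all genes) and 1 lower (9.09%, against 13.9%). LLGL2, a polarity protein of the lateral membrane, had 16.4, 16.8 and 15.6 CPM in ZA, against 7.23, 9.53 and 9.35 CPM in BITC, and ZA library 1 matched the others. LLGL2 gave a log2 fold change of 0.90 (SE 0.12, adjusted p = 5.3e-05), or 0.90 without ZA library 1 (SE 0.13, adjusted p = 1.81e-07). PPL, periplakin, which links keratin filaments to junctions, had 17.1, 17.2 and 17.5 CPM in ZA, against 11, 9.46 and 10.9 CPM in BITC. PPL gave a log2 fold change of 0.72 (SE 0.11, adjusted p = 0.000181), or 0.74 without ZA library 1 (SE 0.12, adjusted p = 1.58e-06). KRT7, a simple epithelial keratin, had 328, 365 and 374 CPM in ZA, against 255, 246 and 265 CPM in BITC. KRT7 gave a log2 fold change of 0.48 (SE 0.05, adjusted p = 5.96e-07), or 0.54 without ZA library 1 (SE 0.04, adjusted p = 2.5e-17). None of these 3 genes overlapped between the groups. KRT8 and KRT18, partners in 1 filament, had log2 fold changes of 0.35, or 0.42 without ZA library 1, and 0.27, or 0.31 without ZA library 1. KRT81, a hair keratin, was higher (0.56, adjusted p = 0.006, or 0.68, adjusted p = 7e-07 without ZA library 1), a call lost without library BITC 2 (adjusted p = 0.0509). KRT19 (0.35, or 0.44 without ZA library 1), KRT80 (0.18, or 0.22 without ZA library 1) and EPCAM (0.33, or 0.35 without ZA library 1) were the other called genes. The call of EPCAM was lost without library vehicle 1, BITC 1, BITC 2, BITC 3, ZA 2, ZA 3, BITC+ZA 1 or BITC+ZA 3 (adjusted p from 0.0502 to 0.17), and the call of KRT80 was lost without library BITC 1, BITC 2, ZA 2 or ZA 3 (adjusted p from 0.0606 to 0.153). KRT80 was not called with GC and length offsets (0.06, adjusted p = 0.348). With these offsets 8 of the 11 genes were called higher, against 4.62% of all genes. In all 9 called genes BITC+ZA lay nearer to BITC, against 42.4% of all called genes. In 7 (6 without ZA library 1) vehicle lay nearer to ZA, against 48.4% of all called genes (33.0% without ZA library 1).

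The luminal epithelial markers EPCAM, CDH1, KRT19, GATA3, FOXA1 and ESR1 summed to 276 to 337 CPM in ZA libraries and 236 to 257 CPM in BITC libraries, most of it from KRT19. CDH1 stayed at or below 0.901 CPM and FOXA1 at or below 0.119 CPM in every library, and ESR1 was at 0 in the 6 libraries. Markers of blood cells summed to 0.575 to 1.32 CPM in ZA and 0.748 to 1.11 CPM in BITC, and those of fibroblasts to 9.08 to 11.7 CPM in ZA and 8.29 to 12 CPM in BITC, almost all from COL1A1, with DCN at 0. Endothelial, osteoclast and adipocyte markers summed to at most 0.703, 6.32 and 0.298 CPM in ZA and 0.623, 5.29 and 0.436 CPM in BITC.

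**Figure D5:**
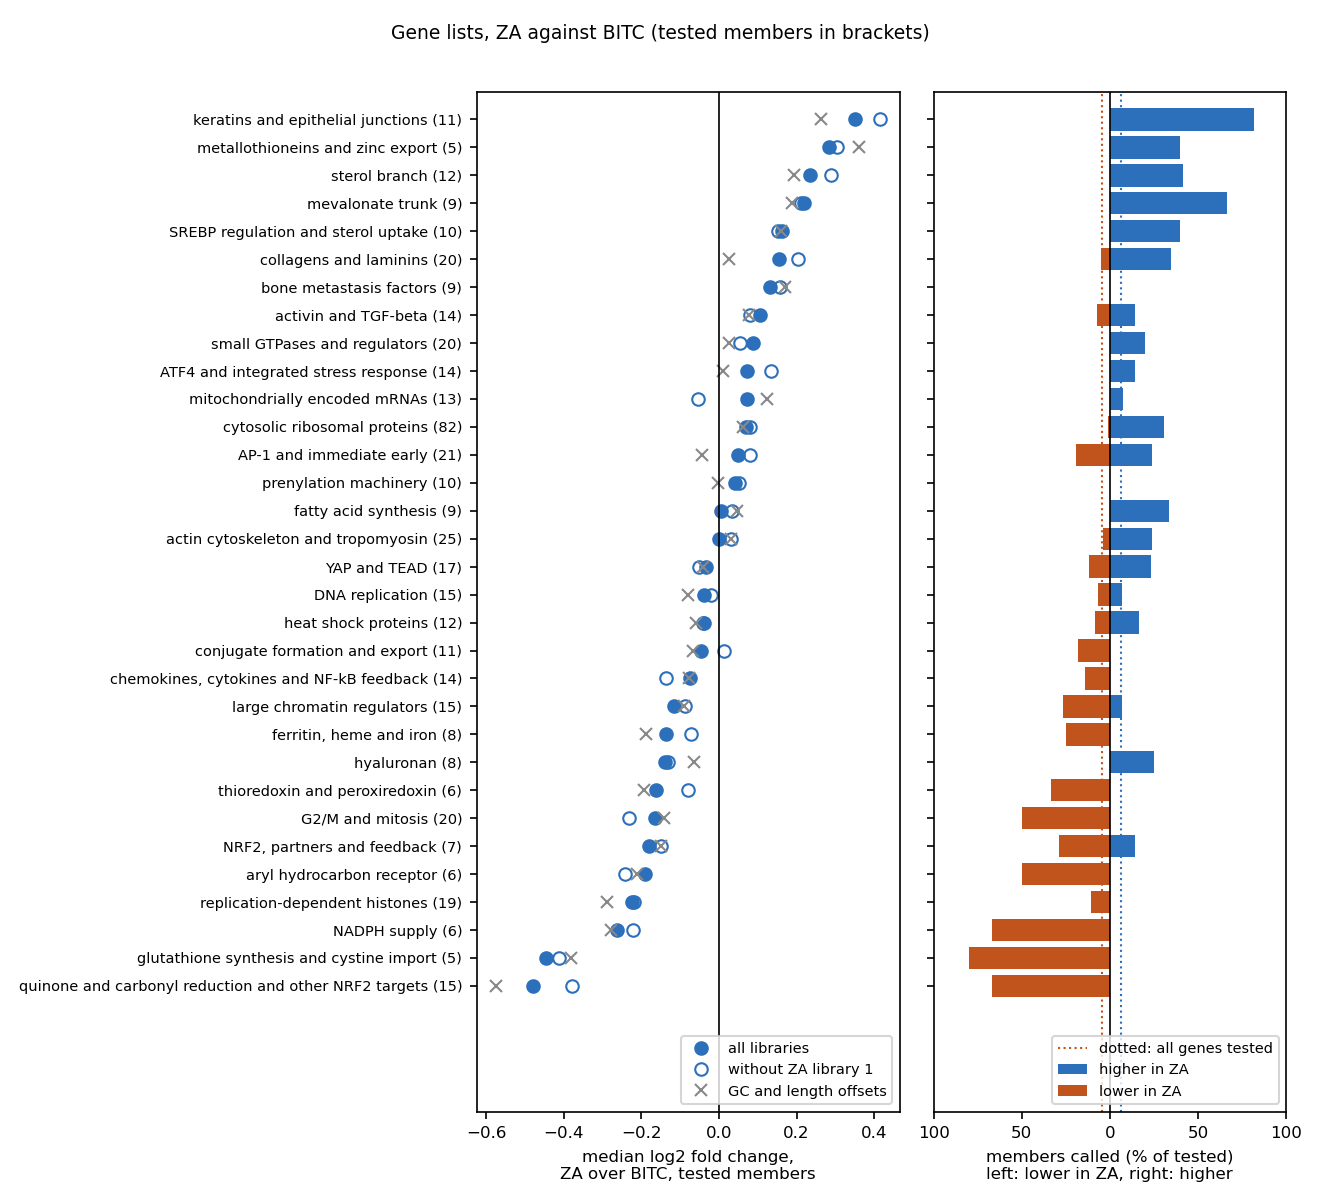
Left, the median log2 fold change of ZA over BITC over the tested members of 32 gene lists, as tested (filled), without ZA library 1 (open) and with GC and length offsets (crosses). Right, the share of tested members called lower (to the left, orange) or higher (to the right, blue) in ZA, with dotted lines at 4.44 and 6.11%, the shares over all genes tested. Keratins, mevalonate trunk and sterol branch reach farthest to the right among the lists with 9 or more members, and glutathione synthesis, quinone reduction and NADPH supply farthest to the left.

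Activin and hyaluronan genes differed in single cases. INHBA, the activin A subunit, had 24.7, 21.9 and 22.7 CPM in ZA, against 16.8, 14.3 and 13.5 CPM in BITC, without overlap. INHBA gave a log2 fold change of 0.63 (SE 0.10, adjusted p = 0.000286), or 0.59 without ZA library 1 (SE 0.10, adjusted p = 9.37e-06). Its level was 16.3 ± 0.423 CPM with both compounds and 23.7 ± 1.83 CPM in vehicle. FSTL3, a secreted antagonist of activin, had 21.4, 26.3 and 27.5 CPM in ZA, against 16.6, 16.4 and 17.8 CPM in BITC. FSTL3 gave a log2 fold change of 0.57 (SE 0.10, adjusted p = 0.000748), or 0.67 without ZA library 1 (SE 0.09, adjusted p = 5.97e-08). TGFBR2, a TGF-beta receptor, was lower (−0.18, adjusted p = 0.0247, or −0.19, adjusted p = 0.000933 without ZA library 1), a call lost without library BITC 1, BITC 2, ZA 2 or ZA 3 (adjusted p from 0.0606 to 0.164). In all, 2 of 14 activin and TGF-beta genes were called higher and 1 lower (14.3% higher and 7.14% lower, against 6.11 and 4.44% over all genes tested). The list had 4 higher (28.6%, against 15.7% over all genes) and 1 lower (7.14%, against 13.9%) without ZA library 1. CEMIP, which drives the breakdown of hyaluronan, had 71.9, 86.1 and 92.1 CPM in ZA, against 56.4, 56.3 and 57.1 CPM in BITC, and all ZA libraries were higher. CEMIP gave a log2 fold change of 0.56 (SE 0.07, adjusted p = 1.25e-05), or 0.66 without ZA library 1 (SE 0.06, adjusted p = 1.98e-14). Its vehicle libraries held 95.8, 93.8 and 97.5 CPM. HYAL2, a hyaluronidase, was higher (0.43, adjusted p = 0.00542, or 0.51, adjusted p = 1.1e-05 without ZA library 1), a call lost without library BITC 2 or ZA 2 (adjusted p from 0.0506 to 0.0569) and absent with GC and length offsets (0.23, adjusted p = 0.0555). CEMIP and HYAL2 were the called genes among 8 for hyaluronan (25% higher and 0% lower, against 6.11 and 4.44% over all genes tested). Leaving out ZA library 1 gave 2 higher (25%, against 15.7% over all genes) and 2 lower (25%, against 13.9%).

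Of 20 collagens and laminins, 7 were called higher and 1 lower (35 and 5%, against 6.11 and 4.44% of all genes). Leaving out ZA library 1 gave 11 and 2 (55 and 10%, against 15.7 and 13.9%). But with GC and length offsets 3 were called higher and 1 lower, where 4.62 and 5.1% of all genes were called. The called genes had a median GC content of 61.2%. COL4A1, of the basement membrane, had 69.5, 81.3 and 78.3 CPM in ZA, against 57.7, 58.7 and 64.8 CPM in BITC, without overlap. COL4A1 gave a log2 fold change of 0.34 (SE 0.07, adjusted p = 0.00247), or 0.41 without ZA library 1 (SE 0.06, adjusted p = 1.71e-07). COL4A2, its partner chain, was higher (0.41, adjusted p = 0.00502, or 0.52, adjusted p = 1.07e-09 without ZA library 1), a call lost without library ZA 2 (adjusted p = 0.0511). COL6A2 was called (0.47, adjusted p = 0.00786, or 0.61, adjusted p = 5.35e-07 without ZA library 1), a call lost without library BITC 1, BITC 2 or ZA 2 (adjusted p from 0.0541 to 0.0987), and COL18A1 was called (0.31, adjusted p = 0.00556, or 0.41, adjusted p = 3.21e-09 without ZA library 1), a call lost without library BITC 1 or ZA 2 (adjusted p from 0.0507 to 0.0588). With the offsets neither COL6A2 (0.23, adjusted p = 0.0761) nor COL18A1 (0.09, adjusted p = 0.261) was called. COL5A1 (0.29, or 0.38 without ZA library 1), LAMA5 (0.30, or 0.42 without ZA library 1) and LAMB2 (0.19, or 0.27 without ZA library 1) were the other genes called higher, and LAMC1 (−0.22, or −0.26 without ZA library 1) was called lower. The call of LAMA5 was lost without each library in turn except ZA 1 (adjusted p from 0.0533 to 0.222), that of LAMB2 lost without library BITC 1, BITC 2, ZA 2 or ZA 3 (adjusted p from 0.1 to 0.172) and that of LAMC1 lost without library BITC 2 or ZA 2 (adjusted p from 0.0675 to 0.0833), and LAMA5 (0.11, adjusted p = 0.0678) and LAMB2 (0.05, adjusted p = 0.48) were not called with the offsets.

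Immediate early genes moved both ways. Of 21, 5 were called higher and 4 lower (23.8% higher and 19% lower, against 6.11 and 4.44% over all genes tested). The list had 9 higher (42.9%, against 15.7% over all genes) and 4 lower (19%, against 13.9%) without ZA library 1. JUNB had 27.1, 40.4 and 36.7 CPM in ZA, against 23.5, 23.8 and 24.6 CPM in BITC (log2 fold change 0.53, SE 0.10, adjusted p = 0.00173, or 0.69, SE 0.08, adjusted p = 6.33e-10 without ZA library 1), and IER2 had 43.9, 54.7 and 53.9 CPM in ZA, against 37.2, 33.9 and 37.6 CPM in BITC. IER2 gave a log2 fold change of 0.49 (SE 0.08, adjusted p = 0.000499), or 0.59 without ZA library 1 (SE 0.07, adjusted p = 9.93e-10). Both were higher in every ZA library. KLF2 was higher as well (0.45, adjusted p = 0.00142, or 0.50, adjusted p = 3.62e-07 without ZA library 1) but not called with GC and length offsets (0.20, adjusted p = 0.0842). FOSB, an AP-1 subunit, had 3.45, 4.45 and 3.87 CPM in ZA and 5.30, 7.25 and 5.80 CPM in BITC (−0.64, adjusted p = 0.0155, or −0.55, adjusted p = 0.019 without ZA library 1), a call lost without library BITC 2 or ZA 3 (adjusted p from 0.0553 to 0.127). FOS fell (−0.40, or −0.30 without ZA library 1), a call lost without library BITC 2 (adjusted p = 0.0576), while JUN and EGR1 were higher (log2 fold change 0.20, or 0.26 without ZA library 1, and 0.27, or 0.27 without ZA library 1). The call of JUN was lost without library BITC 1, BITC 2, ZA 2 or ZA 3 (adjusted p from 0.0864 to 0.16), and JUN was not called with the offsets (0.07, adjusted p = 0.26). With the offsets and without ZA library 1, EGR1 was not called (0.12, adjusted p = 0.0632). DUSP5 (−0.19, or −0.17 without ZA library 1) and DUSP6 (−0.18, or −0.20 without ZA library 1), phosphatases of MAP kinases, fell. The call of DUSP5 was lost without library BITC 2 (adjusted p = 0.0652) and that of DUSP6 lost without library BITC 1, BITC 2, ZA 2 or ZA 3 (adjusted p from 0.064 to 0.12). Of 14 chemokine and cytokine genes 0 were called higher and 2 lower (0 and 14.3%, against 6.11 and 4.44% of all genes). The list had 2 higher (14.3%, against 15.7% over all genes) and 3 lower (21.4%, against 13.9%) without ZA library 1. CXCL8, interleukin 8, had 30.8, 27.8 and 24 CPM in ZA, against 35.9, 33.2 and 34 CPM in BITC, without overlap (log2 fold change −0.32, SE 0.09, adjusted p = 0.02, or −0.40, SE 0.09, adjusted p = 0.00024 without ZA library 1), and its call was lost without library BITC 1, BITC 2, ZA 2 or ZA 3 (adjusted p from 0.0603 to 0.144). IL11 had 24.7, 31.6 and 29.4 CPM in ZA, against 36.5, 35.4 and 37.5 CPM in BITC (−0.35, adjusted p = 0.0112, or −0.25, adjusted p = 0.0137 without ZA library 1), a call lost without library BITC 1 (adjusted p = 0.0532). Of 9 tested bone metastasis factors, PTHLH and DKK1 among them, 0 were called in edgeR's test, 4 had an unadjusted p below 0.05, DESeq2 called 1 and limma 0. Without ZA library 1 edgeR called 2 of them higher (22.2%, against 15.7% over all genes).

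Actin genes gave 6 called higher and 1 lower of 25 (24% higher and 4% lower, against 6.11 and 4.44% over all genes tested). The list had 10 higher (40%, against 15.7% over all genes) and 3 lower (12%, against 13.9%) without ZA library 1, and with GC and length offsets 4 higher and 5 lower. RAPH1, lamellipodin, which extends actin filaments at the cell edge, had 25.4, 18.7 and 25.9 CPM in ZA, against 31.7, 41.1 and 35.5 CPM in BITC, without overlap. RAPH1 gave a log2 fold change of −0.63 (SE 0.11, adjusted p = 0.0014), or −0.69 without ZA library 1 (SE 0.12, adjusted p = 5.2e-05). TAGLN2, an actin-bundling protein, had 491, 536 and 539 CPM in ZA, against 409, 412 and 443 CPM in BITC. TAGLN2 gave a log2 fold change of 0.31 (SE 0.05, adjusted p = 0.000193), or 0.36 without ZA library 1 (SE 0.04, adjusted p = 1.14e-11). MYL9, a myosin light chain, was higher (0.40, adjusted p = 0.0195, or 0.54, adjusted p = 2.03e-14 without ZA library 1), as was TPM2, a tropomyosin (0.37, adjusted p = 0.023, or 0.49, adjusted p = 2.78e-05 without ZA library 1). For both, ZA library 1 lay inside the BITC range, and the call of MYL9 was lost without library BITC 1, BITC 2, ZA 2 or ZA 3 (adjusted p from 0.0566 to 0.091) and that of TPM2 lost without library BITC 1, BITC 2, ZA 2 or ZA 3 (adjusted p from 0.105 to 0.151). TPM1 (0.30, or 0.29 without ZA library 1), CNN2 (0.23, or 0.34 without ZA library 1) and PFN1 (0.23, or 0.29 without ZA library 1) were the other genes called higher. The call of CNN2 was lost without each library in turn except ZA 1 and BITC 3 (adjusted p from 0.0569 to 0.229), and neither CNN2 (0.12, adjusted p = 0.0609) nor PFN1 (0.08, adjusted p = 0.116) was called with GC and length offsets. Of 17 genes of YAP and TEAD, which respond to tension in the cell, 4 were called higher and 2 lower (23.5% higher and 11.8% lower, against 6.11 and 4.44% over all genes tested). The list had 4 higher (23.5%, against 15.7% over all genes) and 5 lower (29.4%, against 13.9%) without ZA library 1. AXL, a receptor kinase (0.16, or 0.21 without ZA library 1), and FJX1 (0.20, or 0.27 without ZA library 1) were higher, CYR61 (0.15, or 0.21 without ZA library 1) and ANKRD1 (0.15, or 0.13 without ZA library 1) too, and TEAD1 (−0.20, or −0.23 without ZA library 1) and PTPN14 (−0.16, or −0.16 without ZA library 1) were lower. With GC and length offsets AXL (0.08, adjusted p = 0.0553), FJX1 (−0.03, adjusted p = 0.813), TEAD1 (−0.09, adjusted p = 0.0597) and PTPN14 (−0.06, adjusted p = 0.276) were not called. The call of CYR61 was lost without library BITC 1, BITC 2, ZA 2 or ZA 3 (adjusted p from 0.113 to 0.188), that of ANKRD1 lost without library BITC 1, BITC 2, BITC 3 or ZA 2 (adjusted p from 0.0636 to 0.149), that of AXL lost without library BITC 1, BITC 2, ZA 2 or ZA 3 (adjusted p from 0.0816 to 0.196), that of FJX1 lost without library vehicle 1, vehicle 3, BITC 1, BITC 2, ZA 2, ZA 3, BITC+ZA 1, BITC+ZA 2 or BITC+ZA 3 (adjusted p from 0.0563 to 0.233), that of TEAD1 lost without library BITC 1, BITC 2 or ZA 2 (adjusted p from 0.0546 to 0.0805) and that of PTPN14 lost without library BITC 1, BITC 2 or ZA 2 (adjusted p from 0.0694 to 0.211).

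G2/M and mitosis genes were lower in ZA: 10 of 20 were called lower and 0 higher, against 4.44 and 6.11% of all genes tested. Their median log2 fold change was −0.17. Without ZA library 1, 15 were called lower (75%, against 13.9% over all genes) and 1 higher (5%, against 15.7%), with a median of −0.23. In all 10, ZA library 1 lay above both other ZA libraries. Leaving out 1 library at a time left 2 without BITC library 2, 3 each without ZA library 2 or 3 and 4 without BITC library 1, against 15 without ZA library 1, and with only the ZA and BITC libraries 1 was called. CENPF, a kinetochore protein, had 528, 497 and 504 CPM in ZA, against 607, 628 and 591 CPM in BITC, without overlap. CENPF gave a log2 fold change of −0.26 (SE 0.04, adjusted p = 0.000499), or −0.28 without ZA library 1 (SE 0.04, adjusted p = 3.61e-09). KIF20A, a mitotic kinesin, had 214, 199 and 205 CPM in ZA, against 240.4, 250.2 and 235 CPM in BITC. KIF20A gave a log2 fold change of −0.23 (SE 0.05, adjusted p = 0.00271), or −0.26 without ZA library 1 (SE 0.04, adjusted p = 1.25e-06). TOP2A, the topoisomerase of dividing cells, had 1132, 940.4 and 958 CPM in ZA, against 1215, 1226 and 1129 CPM in BITC, with ZA library 1 inside the BITC range (log2 fold change −0.24, SE 0.05, adjusted p = 0.00626, or −0.32, SE 0.03, adjusted p = 2.81e-11 without ZA library 1), and its call was lost without library BITC 2 or ZA 2 (adjusted p from 0.0504 to 0.0606). CENPE was lower (−0.29, adjusted p = 0.00809, or −0.39, adjusted p = 1.77e-09 without ZA library 1), a call lost without library BITC 1, BITC 2, ZA 2 or ZA 3 (adjusted p from 0.0567 to 0.0634). In these bulk libraries fewer cells in mitosis and less RNA per cell cannot be told apart. The median GC content of the 10 was 42.8%, and with GC and length offsets 13 of the 20 were called lower, against 5.1% of all genes. In 4 of the 10 the vehicle mean lay nearer to ZA (3 without ZA library 1), and in 2 BITC+ZA lay nearer to BITC. Over all called genes these shares were 48.4% (33.0% without ZA library 1) and 42.4%.

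Of 15 DNA replication genes 1 was called higher and 1 lower, shares near those over all genes (6.67% higher and 6.67% lower, against 6.11 and 4.44% over all genes tested). The list had 5 higher (33.3%, against 15.7% over all genes) and 4 lower (26.7%, against 13.9%) without ZA library 1. RRM2, of ribonucleotide reductase, was lower (−0.22, adjusted p = 0.0112, or −0.30, adjusted p = 1.19e-07 without ZA library 1), a call lost without library BITC 1, BITC 2, ZA 2 or ZA 3 (adjusted p from 0.0606 to 0.0833). TYMS, thymidylate synthase, was higher (0.22, adjusted p = 0.0377, or 0.31, adjusted p = 8.04e-06 without ZA library 1), with ZA library 1 inside the BITC range, and its call was lost without each library in turn except ZA 1 and BITC 3 (adjusted p from 0.0559 to 0.27). Of 15 large chromatin regulators 1 was called higher and 4 lower (6.67% higher and 26.7% lower, against 6.11 and 4.44% over all genes tested). The list had 3 higher (20%, against 15.7% over all genes) and 6 lower (40%, against 13.9%) without ZA library 1. CREBBP (−0.24, or −0.29 without ZA library 1), EP300 (−0.24, or −0.22 without ZA library 1) and CHD8 (−0.22, or −0.29 without ZA library 1) were lower and CHD4 (0.42, or 0.47 without ZA library 1) was higher. The call of CREBBP was lost without library BITC 2 or ZA 2 (adjusted p from 0.0771 to 0.108), that of EP300 lost without library BITC 1, BITC 2 or ZA 2 (adjusted p from 0.0714 to 0.152), that of CHD8 lost without library BITC 2, ZA 2 or ZA 3 (adjusted p from 0.0714 to 0.168) and that of CHD4 lost without library BITC 2, BITC 3 or ZA 2 (adjusted p from 0.0624 to 0.15).

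Stress genes differed in single cases. HSPA1A, an inducible HSP70 gene with a near-identical copy, had 28.1, 34.8 and 38.9 CPM in ZA, against 22, 23.4 and 22.6 CPM in BITC, without overlap. HSPA1A gave a log2 fold change of 0.58 (SE 0.09, adjusted p = 0.000489), or 0.70 without ZA library 1 (SE 0.08, adjusted p = 9.25e-10). HSP90AA1 was lower (−0.18, adjusted p = 0.00972, or −0.24, adjusted p = 1.98e-09 without ZA library 1), a call lost without library BITC 1, BITC 2, ZA 2 or ZA 3 (adjusted p from 0.0515 to 0.0705), and HSPE1, a mitochondrial chaperonin, was higher (0.26, adjusted p = 0.00685, or 0.31, adjusted p = 1.55e-05 without ZA library 1), a call lost without library ZA 2 (adjusted p = 0.0595). In all, 2 of 12 heat shock genes were called higher and 1 lower (16.7% higher and 8.33% lower, against 6.11 and 4.44% over all genes tested). The list had 4 higher (33.3%, against 15.7% over all genes) and 4 lower (33.3%, against 13.9%) without ZA library 1. Of 14 genes of the integrated stress response 2 were called higher and 0 lower (14.3% higher and 0% lower, against 6.11 and 4.44% over all genes tested). The list had 4 higher (28.6%, against 15.7% over all genes) and 0 lower (0%, against 13.9%) without ZA library 1. The 2 called with all libraries were PHGDH, of serine synthesis (0.37, adjusted p = 0.00886, or 0.42, adjusted p = 0.000432 without ZA library 1), a call lost without library BITC 2 or ZA 2 (adjusted p from 0.0563 to 0.0813), and DDIT4, an inhibitor of mTORC1 (0.26, adjusted p = 0.0339, or 0.37, adjusted p = 9e-06 without ZA library 1), a call lost without library vehicle 1, vehicle 2, vehicle 3, BITC 1, BITC 2, ZA 2, ZA 3 or BITC+ZA 3 (adjusted p from 0.0503 to 0.225). DDIT4 was not called with GC and length offsets (0.11, adjusted p = 0.274). Of 5 metallothionein and zinc genes 2 were called higher and 0 lower (40% higher and 0% lower, against 6.11 and 4.44% over all genes tested). The list had 3 higher (60%, against 15.7% over all genes) and 0 lower (0%, against 13.9%) without ZA library 1. SLC30A1, a zinc exporter, had 93.2, 103 and 90.2 CPM in ZA, against 82, 76.9 and 76.1 CPM in BITC, without overlap. SLC30A1 gave a log2 fold change of 0.28 (SE 0.06, adjusted p = 0.00421), or 0.30 without ZA library 1 (SE 0.06, adjusted p = 1.8e-05). MT2A was higher (0.19, adjusted p = 0.0154, or 0.17, adjusted p = 0.000882 without ZA library 1), but not with GC and length offsets (0.10, adjusted p = 0.23), and its call was lost without library BITC 1, BITC 2 or ZA 2 (adjusted p from 0.0596 to 0.0971). Metallothionein genes are near-identical in part, so single members are uncertain.

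Among the 12 genes with the largest gains in ZA, those called with every library left out in turn were RHOB, LLGL2, RTN4R and SH2D3A. RTN4R, a receptor of myelin-derived ligands, had 6.58, 7.09 and 7.27 CPM in ZA, against 3.86, 2.58 and 4.55 CPM in BITC. RTN4R gave a log2 fold change of 0.93 (SE 0.18, adjusted p = 0.00271), or 0.97 without ZA library 1 (SE 0.20, adjusted p = 6.91e-05). SH2D3A, an SH2 adaptor, had 19, 22.5 and 21.9 CPM in ZA, against 10.4, 12 and 14.2 CPM in BITC. SH2D3A gave a log2 fold change of 0.79 (SE 0.12, adjusted p = 0.000126), or 0.87 without ZA library 1 (SE 0.12, adjusted p = 2.05e-08). The groups did not overlap for either. STAG3L1, a transcribed pseudogene, had 4.22, 7.81 and 8.46 CPM in ZA and 3.68, 3.50 and 2.49 CPM in BITC (1.09, adjusted p = 0.00956, or 1.34, adjusted p = 3.23e-07 without ZA library 1), and its call was lost without library ZA 2 or ZA 3 (adjusted p from 0.0555 to 0.0666). SAA1, serum amyloid A, had 15.6, 35.5 and 33.6 CPM in ZA and 13.7, 13.2 and 15.2 CPM in BITC, and COX6A1, of cytochrome oxidase, had 24.7, 57.2 and 50.7 CPM in ZA and 22.1, 20.2 and 23.9 CPM in BITC. In both, ZA library 1 lay just above the BITC range and far below the other ZA libraries. Their log2 fold changes were 1.01, adjusted p = 0.0443, or 1.31, adjusted p = 5.39e-17 without ZA library 1, for SAA1 and 1.01, adjusted p = 0.0492, or 1.30, adjusted p = 2.79e-20 without ZA library 1, for COX6A1. With GC and length offsets neither was called (1.01, adjusted p = 0.0613, and 1.08, adjusted p = 0.0666). The call of SAA1 was lost without each library in turn except ZA 1 (adjusted p from 0.0631 to 0.172), and that of COX6A1 lost without each library in turn except ZA 1 (adjusted p from 0.0721 to 0.188).

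FKBP2 had 25.1, 50.7 and 39.3 CPM in ZA and 19.5, 17.5 and 21.6 CPM in BITC (0.97, adjusted p = 0.0239, or 1.21, adjusted p = 8.81e-15 without ZA library 1), and its call was lost without library BITC 1, BITC 2 or ZA 3 (adjusted p from 0.0841 to 0.0979). The call of MISP was lost without library BITC 1 or ZA 2 (adjusted p from 0.0629 to 0.0685), that of P2RY11 lost without library BITC 1, BITC 2, ZA 2 or ZA 3 (adjusted p from 0.053 to 0.114), that of SYTL1 lost without library BITC 2 (adjusted p = 0.0509) and that of IFI27L2 lost without library BITC 2 or ZA 2 (adjusted p from 0.0504 to 0.0505). Their log2 fold changes were 0.77, 0.76, 0.76 and 0.75 with all libraries, and 0.92, 1.00, 0.77 and 0.90 in the same order without ZA library 1. With the offsets and without ZA library 1, SYTL1 was not called (0.42, adjusted p = 0.113). Among the 12 largest drops, the genes outside the oxidative defence lists were HKDC1, a hexokinase-like gene, with 4.86, 6.01 and 6.50 CPM in ZA, against 10.3, 8.97 and 11 CPM in BITC (−0.80, adjusted p = 0.00142, or −0.69, adjusted p = 0.000514 without ZA library 1), and PANX2, a pannexin channel, with 3.90, 4.57 and 4.89 CPM in ZA, against 7.48, 7.31 and 7.85 CPM in BITC (−0.76, adjusted p = 0.00461, or −0.67, adjusted p = 0.00268 without ZA library 1). Both were called with every library left out in turn. APCDD1L-DT, a divergent transcript of APCDD1L, fell too (−0.67, adjusted p = 0.00777, or −0.64, adjusted p = 0.00326 without ZA library 1). The sources used here do not say whether counting used strand, so reads of genes that overlap on opposite strands cannot be told apart. AL135905.2 was lower (−0.81, adjusted p = 0.00927, or −0.83, adjusted p = 0.000941 without ZA library 1), a call lost without library BITC 2 or ZA 2 (adjusted p from 0.0573 to 0.0826). The pseudogenes HSP90AB3P (−0.70, or −1.01 without ZA library 1) and VDAC1P1 (−0.66, or −0.88 without ZA library 1) were lower, with levels that may hold reads of their parent genes, and the call of HSP90AB3P was lost without library ZA 2 (adjusted p = 0.0503) and that of VDAC1P1 lost without library BITC 2, ZA 2 or ZA 3 (adjusted p from 0.0577 to 0.0821).

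Ribosomal, mitochondrial and histone genes served as signs of RNA quality. Of 82 cytosolic ribosomal protein genes 25 were called higher and 1 lower (30.5% higher and 1.22% lower, against 6.11 and 4.44% over all genes tested), with a median log2 fold change of 0.07 (0.08 without ZA library 1). The list had 38 higher (46.3%, against 15.7% over all genes) and 14 lower (17.1%, against 13.9%) without ZA library 1. In 23 of the 26, ZA library 1 lay below both other ZA libraries for a gene called higher, or above both for one called lower. RPL36, the called member with the largest change, had 215, 367 and 352 CPM in ZA and 189.8, 181 and 210.1 CPM in BITC (0.69, adjusted p = 0.0449, or 0.90, adjusted p = 1.7e-23 without ZA library 1), and its call was lost without each library in turn except ZA 1 (adjusted p from 0.0645 to 0.184). Of 13 mitochondrially encoded genes 1 was called higher and 0 lower (7.69 and 0%, against 6.11 and 4.44% of all genes). It was MT-CO3 (0.19, adjusted p = 0.00849, or 0.14, adjusted p = 0.000314 without ZA library 1), a call lost without library BITC 2 (adjusted p = 0.0525). The list had 2 higher (15.4%, against 15.7% over all genes) and 5 lower (38.5%, against 13.9%) without ZA library 1. Of 19 tested replication-dependent histone genes, 0 were called higher and 2 lower (0 and 10.5%, against 6.11 and 4.44% of all genes). The list had 0 higher (0%, against 15.7% over all genes) and 4 lower (21.1%, against 13.9%) without ZA library 1. The part of RNA quality in the other results was not tested.

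In the authors' deposited table for ZA against BITC, 594 of 24793 genes had an adjusted p below 0.05, 367 higher and 227 lower in ZA, and 584 of them were among the 1577 called here. An adjusted p of 1 is listed for 14421 genes of the authors' deposited table. For 21 of them the authors' deposited table gives a p-value below that of some gene with an adjusted p below 0.05, so a listed 1 may stand for a missing adjusted p. It was not read as a negative result, and such genes are not among the 594. For SLC7A11 the authors' deposited table gives a log2 fold change of −0.96 (adjusted p = 2.06e-32), for NQO1 −0.77 (adjusted p = 7.19e-40) and for RHOB 0.81 (adjusted p = 1.17e-10).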

How the data were processed

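RNA was sequenced from 12 libraries of MDA-MB-231 cells in 4 groups of 3, grouped by the treatment in the labels. The authors deposited raw counts per gene in 6 comparison tables, FPKM values for all libraries, and, for ZA against BITC, a log2 fold change and p-values per gene. Reads were aligned with HISAT2 to GRCh38 (hg38) and compared with DESeq2 1.20.0, per the submitters' processing notes. Which counter, annotation release or strand option was used is not given in the sources here. Gene lengths and coordinates are those of the deposited tables. The counts of the 6 deposited tables were joined over genes, because each leaves out genes whose counts there sum to less than 2, and such missing counts were set to 0. Per-sample columns left unused numbered 0.

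From the counts, edgeR 4.0.16 (R 4.3.3) was run with TMM scaling, its filter on low counts and the robust quasi-likelihood test, with 1 model over the 4 groups and the contrast ZA minus BITC. The SE is the log2 fold change divided by the root of F. The self-test on simulated data was run first. Alternatives were leaving out each library, only the ZA and BITC libraries, a block on replicate number, GC and length offsets (a smooth trend per library, mgcv 1.9.3), RLE size factors, DESeq2 1.42.0, other filters, and limma 3.58.1 on log2(FPKM + 1) and log2(FPKM + 0.1) of the deposited FPKM. Limma's fold changes are on that scale, which understates the change of low genes. Precision is lowest for genes with few counts.

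Genes named are the 12 with the largest change each way among genes called with and without ZA library 1, without overlap between groups and with a mean of at least 5 CPM, up to 4 called genes per list with the largest change, and 16 genes of the pathways. Some genes that this rule or the lists hold are not reported here, though they count in the lists' totals. Other called list members were named to complete the counts. The genes and the 32 lists were chosen with earlier results of these data known. Of 363 listed symbols 1 was not matched and 2 were matched by an older symbol.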

Additional observations from a re-analysis of the deposited data

How the results depend on the processing

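Over all libraries, 1577 genes were called, 913 higher and 664 lower in ZA, with 22 oxidative defence genes lower, 11 mevalonate and sterol genes and 9 keratin and junction genes higher, and 10 G2/M genes lower. Leaving out 1 library at a time gave 380 to 4525 calls in all, 224 to 2396 higher and 151 to 2129 lower, 20 to 23 for oxidative defence, 3 to 12 for mevalonate and sterol genes, 6 to 9 for keratins and 2 to 15 for G2/M. The most calls came without ZA library 1, and the fewest without BITC library 2 (380), ZA library 2 (388), BITC library 1 (558) or ZA library 3 (672). With only the ZA and BITC libraries the counts were 181, 129 higher, 52 lower, 14, 2, 6 and 1, and without ZA library 1 as well 4145, 2188 higher and 1957 lower. With GC and length offsets and without ZA library 1, 2534 were called, 1394 of them lower. Limma on log2(FPKM + 1) called 767 (387 higher, 380 lower, 5 mevalonate and sterol genes), and on log2(FPKM + 0.1) 772 (392, 380 and 5). The causes of these differences were not tested.

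Of the 114 named genes, 114 kept direction and side of the threshold with RLE size factors, 110 of the 112 with an adjusted p in DESeq2, 89 of 114 with GC and length offsets and 41 of the 113 tested with only the ZA and BITC libraries. A few genes changed sign, and the cause was not tested. HRAS had a log2 fold change of −0.0166 with the offsets and without ZA library 1. FJX1 had −0.0257 with the offsets, −0.0257 with the offsets and the replicate block, and −0.0539 with the offsets and without ZA library 1. KEAP1 had −0.106, −0.105 and −0.0892 in the same 3 settings. HMOX1 had 0.0126 without ZA library 1, in a range of −0.258 to 0.0126, and 0.00854 with only the ZA and BITC libraries without ZA library 1.

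Deviations from the group mean correlated little between same-numbered ZA and BITC libraries (r = 0.028, −0.067 and 0.033 across genes). Whether same-numbered libraries share a batch was not tested. With the replicate block 1785 genes were called (1003 higher, 782 lower), and with GC and length offsets as well 1371. Genes near 1 CPM rest on few reads, and their fold changes are the least precise.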

Other observations

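NMRAL2P, a pseudogene chosen after its values were seen, had 0.767, 0.841 and 1.13 CPM in ZA, against 3.55, 3.99 and 3.37 CPM in BITC, without overlap. It had a log2 fold change of −1.98 (edgeR's quasi-likelihood test, adjusted p = 0.000161), or −1.87 without ZA library 1 (adjusted p = 4.41e-06), and was called lower in ZA. In the authors' deposited table it has a log2 fold change of −1.99 and a p-value of 1.73e-07, with an adjusted p listed as 1. Genes with larger p-values have an adjusted p below 0.05 in that table, so the listed 1 was not read as a negative result.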
